A study of Homo sapiens with 48 samples.

Results

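The untreated CNOT4-AID line was compared with the untreated parental line of the human colorectal cancer cell line DLD-1. The comparison used 8 of the 48 libraries of the series, 4 from CNOT4-AID cells and 4 from parental cells. They were chosen by their labels: in each line, 2 libraries were collected at 8 h and 2 at 24 h, all without auxin. In the CNOT4-AID line the auxin-inducible degron (AID), a tag that lets auxin send a protein to the proteasome, sits on CNOT4. Both lines are labelled TIR1+, so both carry the plant receptor that auxin acts through. The parental line has no degron. Further libraries were read beside this pair: 4 untreated CNOT1-AID libraries, in which the degron sits on CNOT1; 4 CNOT4-AID and 4 parental libraries given 1 mM auxin for 8 h or 24 h; and 2 CNOT4-AID and 2 parental libraries given 1 mM auxin for 2 h, which are the 0 h samples of a series with the transcription blocker triptolide. Every cell was DLD-1, and total RNA was sequenced after removal of ribosomal RNA. The sources used here do not state whether the CNOT4-AID line is 1 clone, how it was selected, or whether the libraries of a group came from separate cultures. Line differences therefore cannot be told apart from clone differences, and the p-values cover only variation among the libraries at hand, part or all of which may be technical.

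CNOT4 is a RING-type ubiquitin ligase that binds the CCR4-NOT complex, the main machine that shortens poly(A) tails of cytoplasmic mRNAs. CNOT1 is the scaffold of that complex, CNOT6, CNOT6L, CNOT7 and CNOT8 are its deadenylases, and CNOT2, CNOT3, CNOT9, CNOT10 and CNOT11 are further subunits. A degron line is meant to keep its tagged protein until auxin is added, so the untreated tagged line is the baseline against which depletion is read. Zinc finger genes with ZNF symbols mostly encode DNA-binding proteins, many with a KRAB domain that recruits the co-repressor TRIM28, and they lie in clusters on chromosome 19.

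Steady-state levels are TPM (transcript abundance relative to all transcripts of a library) as deposited, with unknown read depth. TPM values in each gene's sentences run in the order 8 h, 8 h, 24 h, 24 h unless said otherwise. Small nuclear RNAs took 19.995 to 27.5% of TPM in the CNOT4-AID libraries and 16.4 to 19.3% in the parental libraries, and protein-coding genes took 37.8 to 43.3% in the CNOT4-AID libraries and 44.2 to 47.8% in the parental libraries. The fit therefore scaled the libraries with TMM (trimmed mean of M values), with factors of 0.858 to 0.963 in CNOT4-AID and 1.04 to 1.16 in parental libraries, so that equal deposited TPM is a higher scaled level in CNOT4-AID cells. Without that scaling the median log2 fold change of all genes lay at -0.25, against -0.01 with it. Of 15 colon epithelial marker genes, 11 reached 1 TPM in a line, and none of 19 blood, fibroblast and endothelial markers did, PTPRC, HBB and COL1A2 being listed at 0 in all 8 libraries. The colon marker CDX1 was also listed at 0, and of 4 neural markers TUBB3 and MAP2 reached 1 TPM. In bulk RNA, fewer cells of a type and less RNA per cell cannot be told apart.

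CNOT4 itself was measured first. CNOT4 mRNA stood at 9.76, 9.02, 10.2 and 9.96 TPM in CNOT4-AID cells, against 8.85, 8.08, 9.87 and 9.17 TPM in parental cells. The deposited values of the lines overlapped, and after scaling CNOT4 was higher by 0.37 ± 0.05 log2 units (SE; limma, adjusted p = 0.00301). Against untreated CNOT1-AID cells it was higher by 0.47 ± 0.08 (limma, adjusted p = 0.0102). Without TMM scaling, or at 1 time alone, the difference from parental cells did not pass. The levels say nothing of the CNOT4 protein, which was not measured. CNOT4 was the only 1 of the 12 CCR4-NOT subunits (8.33%) past the threshold, beside 13.1% of all genes tested. The other 11 lay between -0.16 for CNOT6 (limma, adjusted p = 0.0585) and 0.11 for TNKS1BP1 (limma, adjusted p = 0.381). CNOT1 had a difference of 0.07 ± 0.03 (SE; limma, adjusted p = 0.176). Without TMM scaling 10 of the 12 were called lower, among them CNOT1, CNOT3, CNOT7 and CNOT8, whose sign turned. Of the other genes tested within 1 Mb of CNOT4 on chromosome 7, none passed, beside the same 13.1% of all genes. The nearest to passing was BPGM, an enzyme of red cell glycolysis, at -0.31 (limma, adjusted p = 0.0575).

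Across the genome, 1941 of 14851 genes tested (13.1%) differed between the lines. Of these, 986 (6.64%) were higher in CNOT4-AID cells and 955 (6.43%) were lower (limma, Benjamini-Hochberg adjusted p under 0.05, time as a covariate). Most differences were small: 71 genes were at least 2-fold higher and 90 at least 2-fold lower on the log2(TPM + 0.5) scale, which understates changes of low genes. Without replicate 2 of CNOT4-AID at 8 h, 516 were higher and 545 lower. Without replicate 2 of CNOT4-AID at 24 h the counts were 610 and 578, without replicate 1 of parental at 8 h 595 and 596, and without replicate 2 of parental at 24 h 627 and 570. Without replicate 1 at 24 h, 617 were lower for the CNOT4-AID library and 617 for the parental one. The balance of the directions rests on the scaling: 292 were higher and 8624 lower without it, and 1254 higher and 418 lower with scaling to the ERCC spike-in RNAs.

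Zinc finger genes led the falls. The 15 largest falls described here are those among called genes with at least 5 TPM in a line and no overlap between the lines, so ZNF350-AS1, ZNF100, ZFP82 and ZNF429, at lower levels, are left out although they fell by 2.45 to 2.87 log2 units. Of these 15 genes, 14 lie on chromosome 19 and 13 have a ZNF or ZFP symbol. ZNF540 (chromosome 19, 37551406 to 37614097 on GRCh38) had 0.19, 0.30, 0.17 and 0.35 TPM in CNOT4-AID cells, against 20.4, 19.9, 19.2 and 16 TPM in parental cells. It fell by 4.51 ± 0.11 on the log2 scale, or 22.8-fold (limma, adjusted p = 7.82e-08). ZNF493 had 0.09, 0.10, 0.03 and 0.04 TPM in CNOT4-AID cells, against 7.09, 9.35, 10.2 and 7.91 TPM in parental cells. ZNF570 had 0.01, 0.01, 0 and 0 TPM in CNOT4-AID cells, against 6.96, 6.52, 6.98 and 6.17 TPM in parental cells. In all 3 genes the lines lay far apart at both times.

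**Figure D1:**
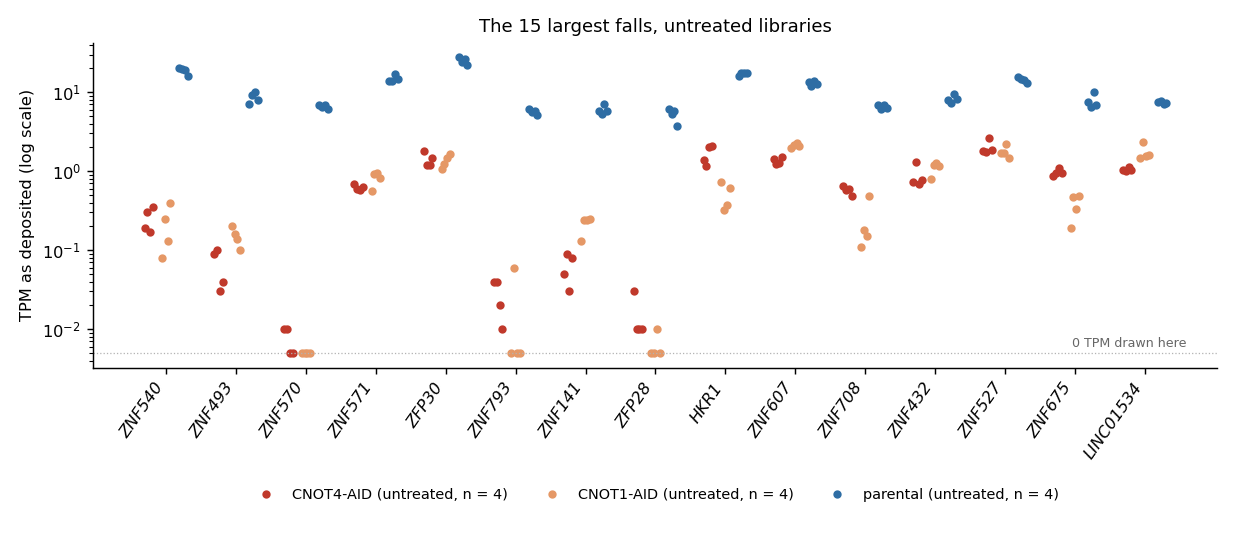
TPM as deposited (log scale) of the 15 largest falls (called genes with at least 5 TPM in a line and no overlap between the lines) in each untreated library: 4 CNOT4-AID, 4 CNOT1-AID and 4 parental, with the pair at 8 h left of the pair at 24 h within each line. The lack of overlap between CNOT4-AID and parental libraries is part of how the genes were chosen. The CNOT1-AID libraries lie near the CNOT4-AID ones for most genes; values of 0 are drawn on the dotted line.

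ZNF571 fell by 3.57 ± 0.08 on the log2 scale, with 0.57 to 0.69 TPM in CNOT4-AID cells, against 14.1 to 17.1 TPM in parental cells. ZFP30, a KRAB zinc finger gene beside it, had 1.20 to 1.82 TPM in CNOT4-AID cells, against 22.0 to 27.5 TPM in parental cells. ZNF793, ZNF607, ZNF527 and HKR1, all within 1 stretch of 19q with ZNF540, had log2 fold changes of -2.35 to -3.41. In the same list, ZNF708 and ZNF675 belong to the cluster next to the centromere, ZNF432 lies further along the long arm, and ZFP28 lies near its end. ZFP28 had 0.03, 0.01, 0.01 and 0.01 TPM in CNOT4-AID cells, against 6.17, 5.23, 5.76 and 3.69 TPM in parental cells. LINC01534, a long non-coding RNA gene among them, had 1.00 to 1.12 TPM in CNOT4-AID cells, against 7.06 to 7.68 TPM in parental cells. The only one of the 15 off chromosome 19 was ZNF141 on chromosome 4, with 0.05, 0.09, 0.03 and 0.08 TPM in CNOT4-AID cells, against 5.76, 5.35, 7.02 and 5.86 TPM in parental cells. Over all genes, the 4 CNOT4-AID libraries lay under all 4 parental libraries in 9.31% and over them in 8.96% after scaling; the 15 were drawn from genes of that kind, so their own lack of overlap shows nothing further. All 15 falls passed the threshold under every one of the alternatives run on this comparison.

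Some genes were close to silent in the tagged line. In all, 16 genes were under 0.1 TPM in all 4 CNOT4-AID libraries and at 1 TPM or more in all 4 parental libraries, and 14 of them lie on chromosome 19 and 14 have a ZNF or ZFP symbol. ZNF100 was listed at 0, 0, 0 and 0.04 TPM in CNOT4-AID cells, against 3.29, 3.39, 3.78 and 3.31 TPM in parental cells. ZNF429 was listed at 0 in all 4 CNOT4-AID libraries, against 2.37, 2.39, 2.86 and 2.20 TPM in parental cells. ZNF569 was likewise listed at 0 in all 4, against 1.57 to 2.35 TPM in parental cells. ZNF350-AS1 was also listed at 0 in all 4, against 2.36 to 5.69 TPM in parental cells. It is an antisense gene at ZNF350, and whether reads were counted by strand is not given in the sources used here. In the other direction, 1 gene met the same rule. It was a copy of the RF02271 family on chromosome 5, at 1.76 to 2.45 TPM in CNOT4-AID cells and listed at 0 in all 4 parental libraries.

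The promoters of 3 of the fallen genes and of the 2 protein-coding genes with the largest rise among those at 5 TPM or more in a line, S100P and CD44, are shown because the fallen genes moved together. Each window runs from 250 bases before to 50 after a RefSeq gene start on GRCh38.p14, all on the plus strand, 5′ to 3′, with every CG in capitals. The windows are chr19:37551124-37551423 for ZNF540 (the first of 2 starts listed), chr19:21396883-21397182 for ZNF493, chr4:337564-337863 for ZNF141, chr4:6693628-6693927 for S100P and chr11:35138921-35139220 for CD44.
ZNF540: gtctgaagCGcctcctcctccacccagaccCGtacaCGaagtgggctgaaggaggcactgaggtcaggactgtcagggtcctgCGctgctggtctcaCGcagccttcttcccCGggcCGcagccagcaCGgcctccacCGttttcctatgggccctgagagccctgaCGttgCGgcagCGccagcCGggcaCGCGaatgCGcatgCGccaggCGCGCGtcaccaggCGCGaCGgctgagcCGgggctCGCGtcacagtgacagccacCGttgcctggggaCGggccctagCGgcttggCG
ZNF493: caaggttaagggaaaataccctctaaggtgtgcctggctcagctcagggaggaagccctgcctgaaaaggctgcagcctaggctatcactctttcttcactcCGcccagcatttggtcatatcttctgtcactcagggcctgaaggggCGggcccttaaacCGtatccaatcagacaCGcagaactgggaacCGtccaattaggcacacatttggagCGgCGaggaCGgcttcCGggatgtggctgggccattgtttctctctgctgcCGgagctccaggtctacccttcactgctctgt
ZNF141: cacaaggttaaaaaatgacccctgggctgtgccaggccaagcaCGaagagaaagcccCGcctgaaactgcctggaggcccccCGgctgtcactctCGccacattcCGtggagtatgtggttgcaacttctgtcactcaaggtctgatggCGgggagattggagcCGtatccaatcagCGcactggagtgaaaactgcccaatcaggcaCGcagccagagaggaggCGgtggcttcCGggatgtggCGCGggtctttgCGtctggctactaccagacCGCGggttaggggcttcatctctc
S100P: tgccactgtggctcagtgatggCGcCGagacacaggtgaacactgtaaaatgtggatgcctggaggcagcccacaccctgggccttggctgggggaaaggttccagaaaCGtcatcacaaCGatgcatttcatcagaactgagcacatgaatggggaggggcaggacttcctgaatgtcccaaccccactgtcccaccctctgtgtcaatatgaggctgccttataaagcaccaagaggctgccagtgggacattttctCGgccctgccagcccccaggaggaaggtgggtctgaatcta
CD44: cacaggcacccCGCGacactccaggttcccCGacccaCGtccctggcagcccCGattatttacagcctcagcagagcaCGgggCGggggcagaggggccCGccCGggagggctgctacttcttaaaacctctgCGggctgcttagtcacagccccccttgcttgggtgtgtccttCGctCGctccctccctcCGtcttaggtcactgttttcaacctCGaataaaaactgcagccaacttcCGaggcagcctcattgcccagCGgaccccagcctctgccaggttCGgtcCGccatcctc

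The ZNF540 window holds 30 CG, a number that 22.4% of the 35116 windows in the RefSeq table reach. ZNF493 holds 10 (56.4% of windows hold at least as many), ZNF141 holds 16 (47.5%), S100P holds 5 (70.4%) and CD44 holds 18 (44.5%). The windows shown of the fallen genes lay on both sides of 14 CG, the median over all windows. The largest count per gene had a median of 20 over the 131 of 146 lower ZNF genes that matched, and of 26 over the 189 of 222 ZNF genes that were not called. It was 29 over all genes tested, 28 over those called higher and 27 over those called lower, but only 68.2 to 70.4% of these matched, so a comparison with them is void. ZNF493 on chromosome 19 and ZNF141 on chromosome 4 share 17 bases just before their starts, GGCTTCCGGGATGTGGC, in capitals as the shared run. Searched on both strands, this run is in 7 of all 35116 windows (0.0199%). The 7 belong to ZNF43, ZNF431, ZNF492, ZNF493, ZNF85, ZNF91 and ZNF141. Of these, 4 were matched to genes tested, and all 4 were lower: ZNF141, ZNF493, ZNF91 by 2.03 and ZNF431 by 1.63 log2 units. The run was taken from ZNF141 and ZNF493, so their falls were known beforehand. ZNF91 and ZNF431 lie on chromosome 19, where 63.4% of ZNF genes tested were lower, beside 6.43% of all genes. The run was found in genes chosen for their fall, so it is a description of their sequence and no more.

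Among all 372 ZNF genes tested, 146 (39.2%) were lower in CNOT4-AID cells, beside 6.43% of all genes. Only 4 were higher, and the median log2 fold change was -0.23, against -0.01 over all genes. The falls ran from deep to slight: 46 of the 146 were at least 2-fold lower and 18 at least 4-fold lower. Leaving out 1 library gave 110 to 137 lower, scaling to the spike-in RNAs 100, and no scaling 306, while the 8 h libraries alone gave 61 and the 24 h libraries alone 80. On chromosome 19, 104 of 164 ZNF genes (63.4%) were lower and 1 was higher, with a median of -0.45. On the other chromosomes, 42 of 208 (20.2%) were lower and 3 were higher, with a median of -0.13. Of the other protein-coding genes of chromosome 19, which include ZFP30, ZFP28 and HKR1, 61 of 688 were higher and 32 (4.65%) were lower, with a median of 0.08. In the auxin-treated steady-state pair the ZNF medians were -0.38 on chromosome 19 and -0.07 on the other chromosomes. After 2 h of auxin the ZNF medians were -0.56 on chromosome 19 and 0.03 on the other chromosomes.

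The depth of the fall differed along chromosome 19. In the window from 20 to 22 Mb, all 7 ZNF genes tested were lower, with a median of -2.45. Between 36 and 38 Mb, 20 of 21 were lower, with a median of -1.77, and 5 of 6 were lower between 50 and 52 Mb, with a median of -1.44. Between 12 and 14 Mb, 10 of 12 were lower but the median was -0.60. Between 52 and 54 Mb it was 16 of 20, with a median of -0.44. By contrast, 0 of 7 passed between 54 and 56 Mb, where the median was 0.18, and 8 of 24 were lower between 56 and 58 Mb. Beside these counts, 63.4% of all ZNF genes tested on chromosome 19 and 6.43% of all genes were lower. The windows hold few genes and are described by their counts only. In the 36 to 38 Mb window the 12 other protein-coding genes had a median of -0.12. Of these, 5 were lower, beside 4.65% of the other protein-coding genes of the whole chromosome.

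**Figure D2:**
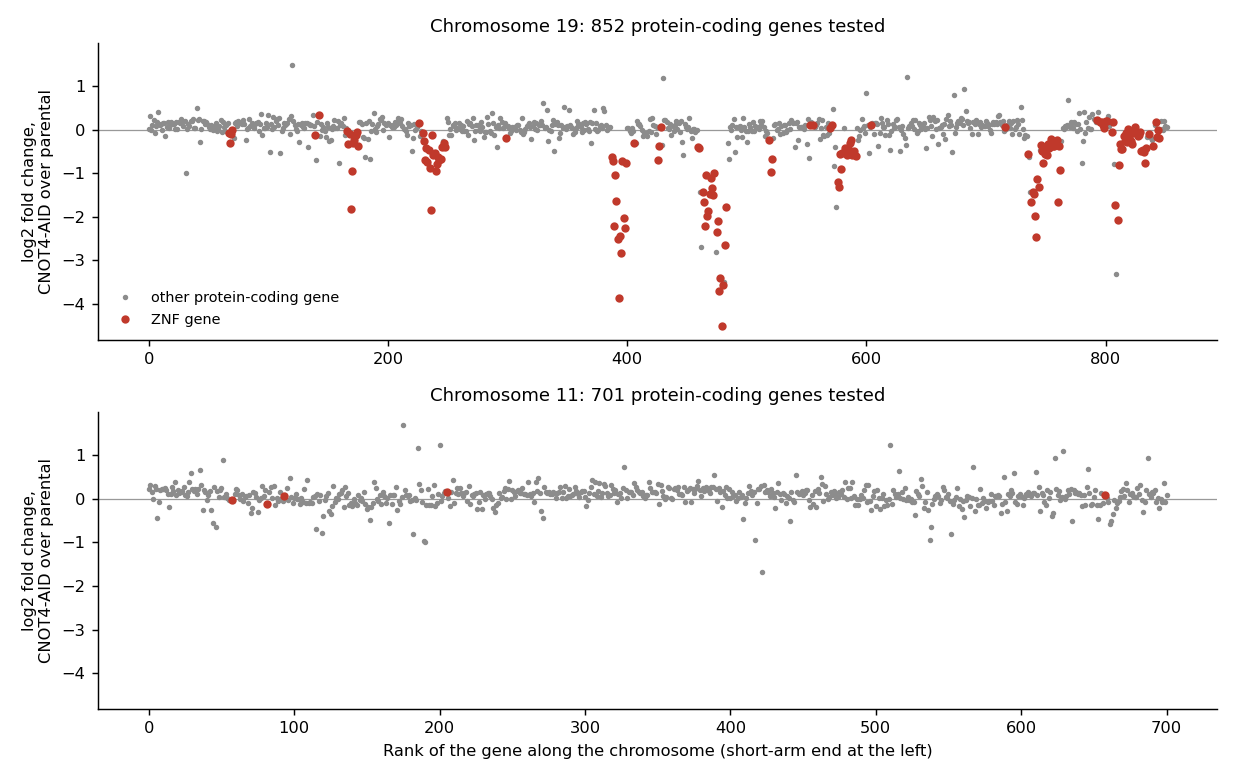
Log2 fold change (CNOT4-AID over parental, untreated) of each protein-coding gene tested on chromosomes 19 (852 genes) and 11 (701 genes), in the order of their positions; red points are ZNF genes and grey points all others. The red points on chromosome 19 drop in separate clusters, the deepest to -4.51 at ZNF540, while most grey points lie near 0; ZFP30, ZFP28 and HKR1, whose symbols do not begin with ZNF, are among the grey points that drop with them. On chromosome 11 the lowest point is CABP4, at -1.67.

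The low ZNF levels were also seen in the other tagged line. Untreated CNOT1-AID cells had 0.08, 0.25, 0.13 and 0.39 TPM of ZNF540 and were listed at 0 for ZNF570 in all 4 libraries. ZNF141 had 0.13 to 0.25 TPM and ZFP30 1.06 to 1.66 TPM in those cells. Against untreated CNOT1-AID cells, 1494 of 14872 genes differed, 723 higher (4.86%) and 771 lower (5.18%). Of the ZNF genes, 14 were higher and 12 lower there, with a median of -0.01. Among the 15 largest falls, HKR1 was higher in CNOT4-AID than in CNOT1-AID cells by 1.23, ZNF708 by 0.68 and ZNF675 by 0.89 log2 units (limma, adjusted p = 0.00473, 0.0396 and 0.00539), and the other 12 did not pass. Of the 16 nearly silent genes, 10 were also under 0.1 TPM in all 4 CNOT1-AID libraries. The counts over all genes moved with single libraries: leaving out 1 of the 8 gave 345 to 463 higher and 320 to 472 lower, except without replicate 1 of CNOT1-AID at 8 h, which gave 1180 and 1107. Without scaling they were 294 and 5474, and with spike-in scaling 513 and 87. This comparison shares the CNOT4-AID libraries with the comparison against parental cells.

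DNMT1, the enzyme that copies DNA methylation at replication, behaved otherwise. It had 48.2, 50.8, 54.98 and 59.2 TPM in CNOT4-AID cells, 102.5, 100.3, 100.9 and 101.6 TPM in CNOT1-AID cells and 105, 94.0, 104 and 109 TPM in parental cells. All 4 CNOT4-AID libraries lay far under the other 8, which overlapped each other. DNMT1 fell by 0.68 ± 0.05 on the log2 scale against parental cells (limma, adjusted p = 4e-05) and by 0.70 ± 0.06 against CNOT1-AID cells (limma, adjusted p = 0.000347). It was lower as well in the auxin-treated pair, by 0.63, and after 2 h of auxin, by 0.80 log2 units (limma and edgeR, adjusted p = 2.15e-05 and 3.25e-07), where it had 4194 and 4274 reads in CNOT4-AID cells and 7154 and 7607 reads in parental cells. Its gene lies on chromosome 19 at 10133345 to 10231286, within the part of the short arm that holds zinc finger clusters. Of 27 polycomb and DNA methylation genes tested, 1 (3.70%) was higher and 2 (7.41%) were lower, near the 6.64% and 6.43% of all genes. DNMT1 passed under every alternative run on this comparison.

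Other genes fell as well, and those named here belong to different lists. CLDN2, a claudin that forms cation pores in tight junctions, had 2.43, 2.67, 4.01 and 4.34 TPM in CNOT4-AID cells, against 7.33, 6.69, 11.6 and 12.3 TPM in parental cells. Its deposited TPM were higher at 24 h than at 8 h in both lines, with the line difference at both times (-1.11 ± 0.07; limma, adjusted p = 2.01e-05). PLAUR, the urokinase receptor, had 7.82 to 9.63 TPM in CNOT4-AID cells, against 18.1 to 21.6 TPM in parental cells (-0.84 ± 0.06). Neither differed from CNOT1-AID cells past the threshold (limma, adjusted p = 0.0927 and 0.086). HAGLR, a non-coding RNA gene beside the HOXD genes, had 0.35 to 0.51 TPM in CNOT4-AID cells, against 2.09 to 3.09 TPM in parental cells, and the doubt about counting by strand holds for it too. EGFR, a growth factor receptor, fell by 0.30 log2 units, TGFB1, which encodes a secreted growth factor, by 0.40, the integrin gene ITGB8 by 0.87 and the glutamate transporter gene SLC1A3 by 0.47 (limma, adjusted p = 0.00456, 0.00136, 0.00183 and 0.00264). CFLAR, an inhibitor of caspase-8 activation, fell by 0.41 (limma, adjusted p = 0.000621). HOXB4, a homeobox gene of chromosome 17, fell by 0.32 (limma, adjusted p = 0.00364). With spike-in scaling EGFR and HOXB4 did not pass.

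Among called genes with at least 5 TPM in a line, no overlap between the lines and no small RNA or clone-type name, the largest rise was of S100P, a calcium-binding EF-hand protein. S100P had 123, 124, 188 and 187 TPM in CNOT4-AID cells, against 39.5, 34.5, 45.4 and 43.0 TPM in parental cells. It was higher by 2.17 ± 0.06 log2 units, or 4.49-fold (limma, adjusted p = 1.33e-07). CNOT1-AID cells lay between the other lines with 94.8 to 112 TPM, and CNOT4-AID cells were higher than these by 0.80 ± 0.07 (limma, adjusted p = 0.000499). S100A4, of the same family, had 129 to 161 TPM in CNOT4-AID cells, against 63.8 to 67.4 TPM in parental cells. In CNOT1-AID cells it had 144 to 162 TPM, and the tagged lines did not differ past the threshold (0.14 ± 0.08; limma, adjusted p = 0.30). Of 11 S100 genes tested, 6 were higher (beside 6.64% of all genes) and 0 lower. S100A6 was higher by 0.49 and S100A14 by 0.28 (limma, adjusted p = 0.00122 and 0.00311). Without scaling 3 of the 11 were higher and 2 lower, and S100A14 did not pass.

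CD44, the hyaluronan receptor on chromosome 11, had 19.1, 18.9, 19.7 and 21.0 TPM in CNOT4-AID cells, against 7.09, 7.72, 6.82 and 6.34 TPM in parental cells. The CNOT4-AID libraries lay at 18.9 TPM and over and the parental ones at 7.72 TPM and under, and the difference was 1.69 ± 0.06 (limma, adjusted p = 7.71e-07). CNOT1-AID cells had 8.60 to 11.3 TPM, 1.16 ± 0.07 log2 units lower than CNOT4-AID cells (limma, adjusted p = 7.96e-05). GGT1, which cleaves glutathione outside the cell, had 11.8, 12.1, 18.4 and 18.1 TPM in CNOT4-AID cells, against 6.01, 5.82, 8.20 and 7.44 TPM in parental cells. PKIB, an inhibitor of cAMP-dependent protein kinase, had 5.77 to 6.51 TPM in CNOT4-AID cells, against 2.51 to 3.15 TPM in parental cells. UCA1, a long non-coding RNA gene, had 5.93 to 11.1 TPM in CNOT4-AID cells, against 3.09 to 4.98 TPM in parental cells. GGT1, PKIB and UCA1 were also higher than in CNOT1-AID cells, by 1.17, 1.34 and 1.35 log2 units (limma, adjusted p = 0.000123, 5.14e-05 and 0.00026).

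**Figure D3:**
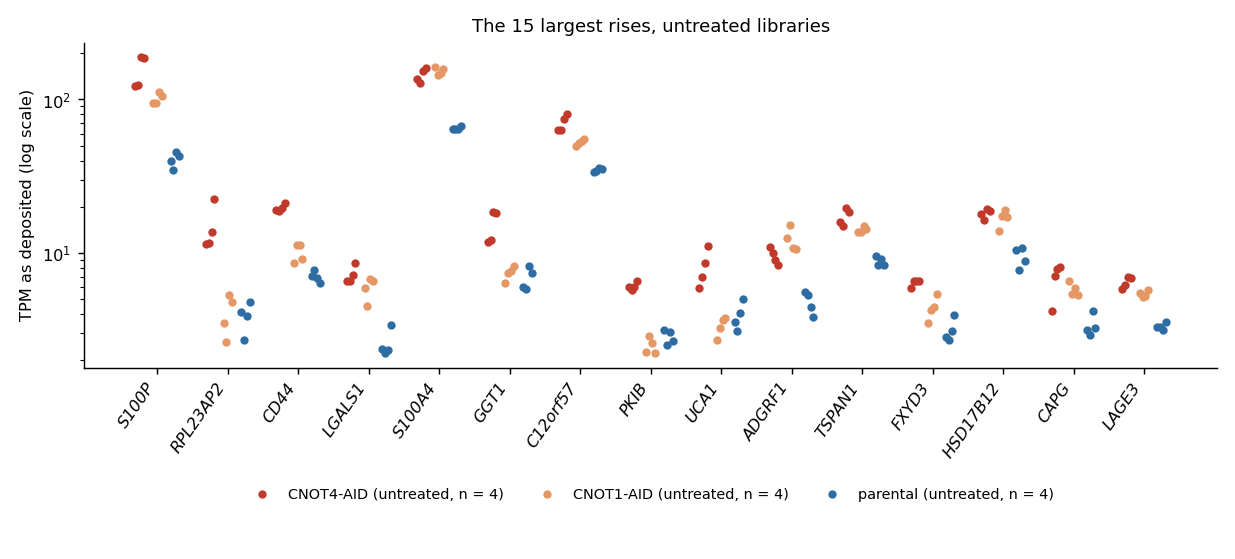
TPM as deposited (log scale) of the 15 largest rises (called genes with at least 5 TPM in a line and no overlap between the lines) in each untreated library: 4 CNOT4-AID, 4 CNOT1-AID and 4 parental, with the pair at 8 h left of the pair at 24 h within each line. For GGT1, PKIB and UCA1 the CNOT1-AID libraries lie near the parental ones, and for CD44 they lie between the other lines. For S100A4 and ADGRF1 the CNOT1-AID libraries lie near the CNOT4-AID ones.

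Among the other large rises, LGALS1, which encodes galectin-1, had 6.51 to 8.61 TPM in CNOT4-AID cells, against 2.24 to 3.40 TPM in parental cells. ADGRF1, an adhesion G-protein-coupled receptor gene, had 8.37 to 10.9 TPM in CNOT4-AID cells, against 3.80 to 5.55 TPM in parental cells. HSD17B12, of fatty acid elongation, had 16.4 to 19.4 TPM in CNOT4-AID cells, against 7.76 to 10.7 TPM in parental cells. C12orf57, TSPAN1 (a tetraspanin), FXYD3 (a regulator of the sodium pump), CAPG (an actin capping protein) and LAGE3 (a subunit of the KEOPS complex) were higher by 1.11 to 1.27 log2 units (limma, adjusted p = 9.12e-07 to 0.00136). Of these 8 genes, ADGRF1 and CAPG did not differ from CNOT1-AID cells past the threshold (limma, adjusted p = 0.236 and 0.202), and the other 6 were higher than there by 0.33 to 0.71. CAPG passed in each fit but that of the 8 h libraries alone (adjusted p = 0.103), where its lowest CNOT4-AID value, 4.21 TPM, lies. RPL23AP2, a ribosomal protein pseudogene, had 11.4, 11.5, 13.7 and 22.5 TPM in CNOT4-AID cells, against 2.70 to 4.79 TPM in parental cells, but reads of its parent gene and copies may be split onto it.

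FTL, the ferritin light chain, had 313, 314, 415 and 437 TPM in CNOT4-AID cells, against 218, 202, 246 and 257 TPM in parental cells. It was higher by 0.94 ± 0.05 against parental cells and by 0.68 ± 0.05 against CNOT1-AID cells (limma, adjusted p = 4.09e-06 and 0.00026). FTH1, the heavy chain, was higher by 0.48 ± 0.06 (limma, adjusted p = 0.000898). LGALS3BP, a secreted galectin-binding glycoprotein, had 48.5 to 57.3 TPM in CNOT4-AID cells, against 26.9 to 31.8 TPM in parental cells. Of the lipid genes, 5 of 33 cholesterol and fatty acid synthesis genes were higher and 0 lower, beside 6.64% higher and 6.43% lower over all genes. Without replicate 2 of CNOT4-AID at 8 h 3 were higher, and without scaling 1 was higher and 22 were lower.

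Of 46 genes listed for colon epithelium, 27 reached the level for testing. Of these 27, 12 were higher and 2 lower, with a median of 0.18, beside 6.64% higher and 6.43% lower over all genes. The 2 lower genes are not named in this paragraph. The 12 and 2 became 6 and 11 without scaling, and 8 were higher without CNOT4-AID replicate 2 at 24 h or parental replicate 1 at 8 h and 9 without any other library. In the auxin-treated steady-state pair 10 of 27 were higher and 4 lower (beside 11.5% and 11% of all genes), with a median of 0.05. After 2 h of auxin 4 of 29 were higher and 5 lower (beside 7.88% and 4.09% of all genes), with a median of -0.04. Of the 15 colon markers used to check the cells, only KRT8, KRT18, KRT19 and KRT20 were called, while EPCAM (-0.03), CDH1 (0.05), CDX2 (0.00) and VIL1 (-0.40) were not (limma, adjusted p = 0.713, 0.417, 0.995 and 0.0924). TFF2, a trefoil peptide of mucous cells, had 1.98 to 2.85 TPM in CNOT4-AID cells, against 0.65 to 0.82 TPM in parental cells (1.40 ± 0.11; limma, adjusted p = 7.89e-05). TFF3 was higher by 0.68 ± 0.12 and the gel-forming mucin MUC5AC by 0.67 ± 0.10 (limma, adjusted p = 0.00786 and 0.00381). Of 8 keratins tested, 4 were higher and 0 lower. KRT19 averaged 334 TPM in CNOT4-AID cells and 317 TPM in parental cells, and was higher by 0.34 ± 0.05 after scaling (limma, adjusted p = 0.00292). KRT20 and KRT8 were higher by 0.25 and 0.24 (limma, adjusted p = 0.00687 and 0.0188), but their deposited TPM were not, with means of 31.1 and 1674 TPM in CNOT4-AID cells and 31.4 and 1698 TPM in parental cells. Both signs turned without TMM scaling, where 0 of the 8 keratins were higher and 2 were lower and KRT19 did not pass. Without replicate 2 of CNOT4-AID at 8 h, 2 keratins were higher and KRT8 did not pass (limma, adjusted p = 0.067). KRT18, higher by 0.19 (limma, adjusted p = 0.0385), lost the call in 9 of 20 alternatives, and its sign turned without TMM scaling. Its mean deposited TPM was 1308 in CNOT4-AID cells and 1378 in parental cells. KRT20 was far apart from CNOT1-AID cells, which had 13.02 to 14.8 TPM, against 28.6 to 34.5 TPM in CNOT4-AID cells (1.32 ± 0.04 higher in CNOT4-AID; limma, adjusted p = 4.59e-06).

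Of 25 integrin and laminin genes, which include basement membrane collagens, 6 were higher and 3 lower, beside 6.64% higher and 6.43% lower over all genes, and without scaling 3 were higher and 13 lower. ITGA1, a collagen-binding integrin, had 2.64 to 3.68 TPM in CNOT4-AID cells, against 1.1 to 1.80 TPM in parental cells. COL4A1, a basement membrane collagen, was higher by 0.75 ± 0.08 and COL17A1, of hemidesmosomes, by 0.69 ± 0.12 (limma, adjusted p = 0.000646 and 0.00624). Of 37 junction and epithelial adhesion genes, 6 were higher and 2 lower, CLDN2 among the falls, and without scaling 3 were higher and 21 lower. The rises included the desmocollin gene DSC2 (0.83 ± 0.11), the epithelial transcription factor gene OVOL2 (0.57 ± 0.10) and the surface protease gene PRSS8 (0.48 ± 0.07), with limma adjusted p = 0.0015, 0.00704 and 0.00214.

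Of 22 Wnt targets, 7 were higher and 1 lower, beside 6.64% and 6.43% of all genes, and without scaling 1 was higher and 7 lower. LGR5, a stem cell receptor of the crypt, was higher by 0.37 ± 0.07, BMP4, a secreted ligand, by 0.29 ± 0.03 and the transcription factor SOX9 by 0.24 ± 0.03 (limma, adjusted p = 0.0101, 0.000854 and 0.00255). The sign of SOX9 turned without TMM scaling, where LGR5 and BMP4 did not pass, and the Wnt count was 4 without replicate 2 of CNOT4-AID at 8 h. Of 39 immediate early genes, 10 were higher and 3 lower, against the same shares over all genes, and without scaling 2 were higher and 19 lower. The higher ones include the transcription regulators ID3 at 0.50 and JUND at 0.46 (limma, adjusted p = 0.0105 and 0.0112). Without scaling neither of these passed, and without replicate 2 of CNOT4-AID at 8 h 8 genes were higher and 1 lower. IL18, an epithelial cytokine, was higher by 0.59 ± 0.04 and AHR, the aryl hydrocarbon receptor, by 0.48 ± 0.05 (limma, adjusted p = 4.86e-05 and 0.000634). The metallothionein MT2A was higher by 0.55 ± 0.07 and BIK, a pro-apoptotic BCL2 relative, by 0.50 ± 0.07 (limma, adjusted p = 0.00101 and 0.00168). Of 40 genes listed for cancer-testis antigens, only 3 were tested, the other 37 being too low or not found. The list therefore says nothing of such antigens in these cells. Its 3 tested genes, the KEOPS subunit gene LAGE3, MAGED2 and MAGED1, were higher, beside 6.64% of all genes. MAGED2 was higher by 0.54 and MAGED1 by 0.44 (limma, adjusted p = 2.08e-05 for LAGE3, 0.000627 and 0.000652).

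**Figure D4:**
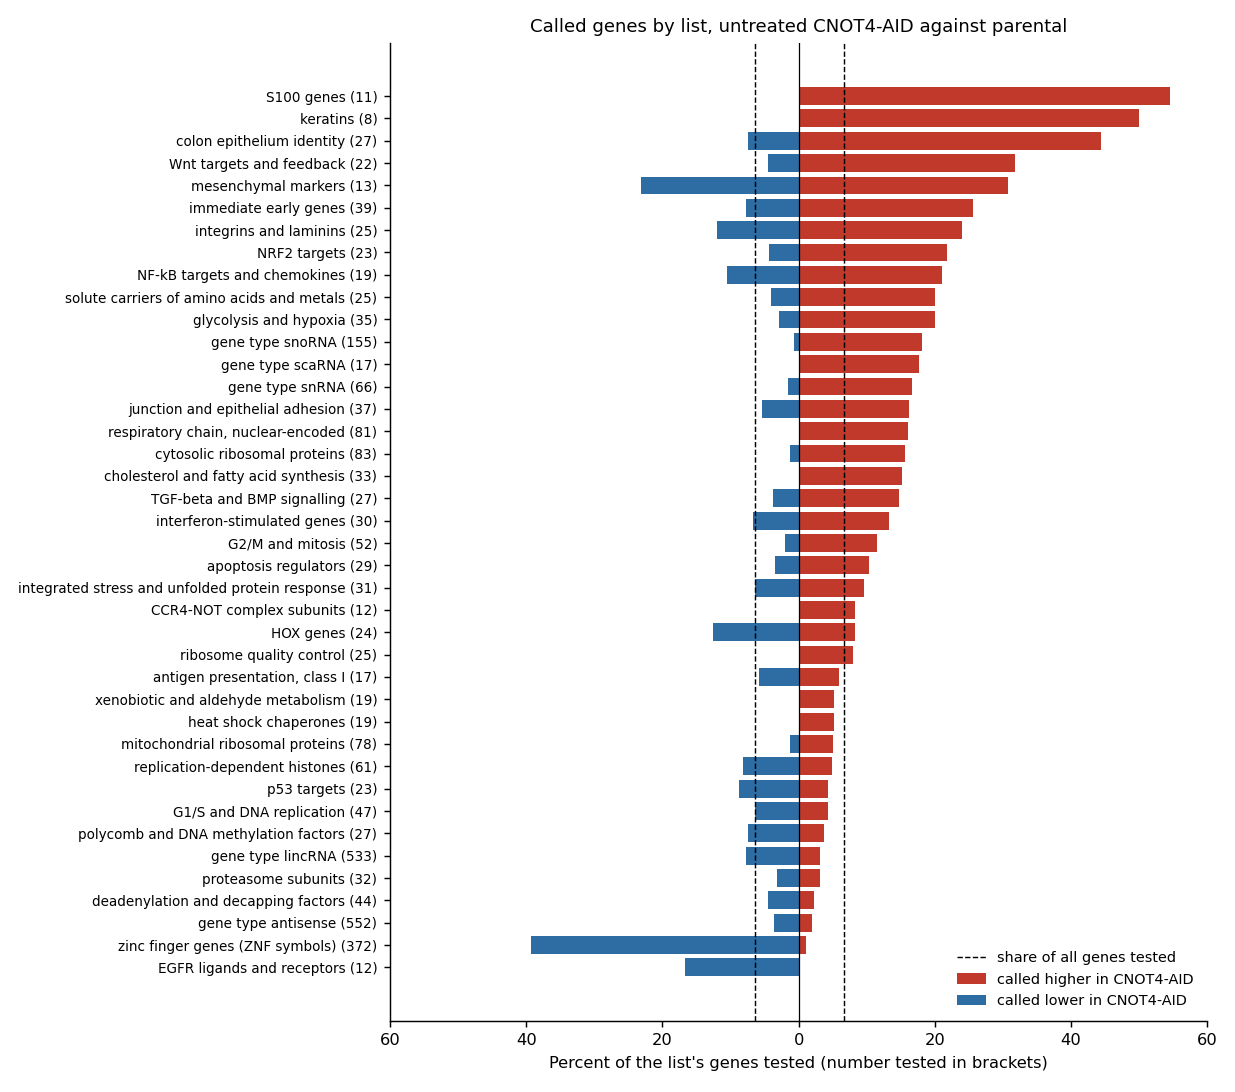
Percent of each gene list called higher (red, right) or lower (blue, left) in untreated CNOT4-AID against parental cells, for lists with at least 8 genes tested; the number tested stands in brackets and the dashed lines are the shares over all genes, 6.64% and 6.43%. The ZNF list stands out to the left, and the S100, keratin and colon epithelium lists reach furthest to the right.

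Of 44 deadenylation and decapping genes, 1 was higher and 2 were lower, beside 6.64% higher and 6.43% lower over all genes, with AGO2, the small RNA slicer, lower by 0.20 ± 0.04 (limma, adjusted p = 0.013), a call lost with spike-in scaling. Of 25 ribosome quality control genes, 2 (8%) were higher, near the share over all genes, and 0 lower, and CNOT4 itself is 1 of the 2. PELO, which rescues stalled ribosomes, was higher by 0.43 ± 0.05 (limma, adjusted p = 0.000898), a call lost at 8 h alone and at 24 h alone. Of 83 cytosolic ribosomal protein genes, 13 were higher and 1 lower, the fall being RPS27L (-0.40 ± 0.07; limma, adjusted p = 0.0053). The 13 became 36 with scaling to the ERCC spike-in RNAs, 0 without scaling, 1 without replicate 2 of CNOT4-AID at 8 h, 8 without replicate 1 at 8 h, 2 without replicate 2 at 24 h, and 7, 3 and 3 without parental replicates 1 and 2 at 24 h and replicate 1 at 8 h. HIST1H2AL, a histone H2A gene, had 45.2 to 67.9 TPM in CNOT4-AID cells, against 34.2 to 39.3 TPM in parental cells (0.85 ± 0.09; limma, adjusted p = 0.000619), and near-identical histone copies may share its reads. Of 155 small nucleolar RNA genes, 28 were higher and 1 lower, with a median of 0.71, and small nuclear RNA genes had a median of 0.66. These classes moved with the larger share of TPM that small RNAs took in the CNOT4-AID libraries, and the part of that share in the other results was not tested. Over all genes, 11.5% were higher and 11% lower in the auxin-treated steady-state pair, and 7.88% and 4.09% after 2 h of auxin. In that pair 6 of 157 small nucleolar RNA genes were higher and 1 lower, with a median of 0.60. After 2 h of auxin 0 of 111 were higher and 9 lower, with a median of -1.04. Of 57 small nuclear RNA genes there, 0 were higher and 16 lower, with a median of -0.42.

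Chromosome 11 held more rises than the other chromosomes. Of its 854 genes tested, 151 (17.7%) were higher and 27 (3.16%) lower, beside 6.64% higher and 6.43% lower over all genes. The median was 0.08, against -0.01 over the other chromosomes. Between 60 and 70 Mb, 60 of 235 genes (25.5%) were higher and 4 (1.70%) lower. CD44 and HSD17B12 lie on this chromosome, but so do many rises too small to stand out singly. The count of higher genes was 70 without replicate 2 of CNOT4-AID at 8 h, 96 and 98 without its replicates 1 and 2 at 24 h, and 89 and 99 without parental replicate 1 at 8 h and replicate 2 at 24 h. In those fits the median stayed between 0.08 and 0.09. Without scaling 33 were higher and 342 lower, with a median of -0.16, against -0.25 over the other chromosomes. The 2 h auxin set differs from the untreated set in its libraries, in auxin and in measure. It holds read counts fitted with edgeR, while the untreated set holds TPM fitted with limma. Whether the size of the shift differs between the sets was therefore not tested. In the 2 h auxin set the shift ran along the whole chromosome, with medians of 0.22 to 0.56 in its 10 Mb bins. There, 351 of 939 genes of chromosome 11 were higher and 12 lower, beside 7.88% higher and 4.09% lower over all genes (edgeR quasi-likelihood, Benjamini-Hochberg adjusted), and the median was 0.39, against 0.02 over the other chromosomes. Leaving out parental replicate 1 or 2 there, the pair of which agreed less (r 0.962, across genes) than the CNOT4-AID pair (r 0.983), gave medians of 0.42 and 0.35. With only the 4 libraries at 0 h in the fit, 8 genes of chromosome 11 were higher and 2 lower, with a median of 0.35, and with scaling to the ERCC spike-ins 111 were higher and 4 lower. In the auxin-treated steady-state libraries the median of chromosome 11 was 0.07.

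**Figure D5:**
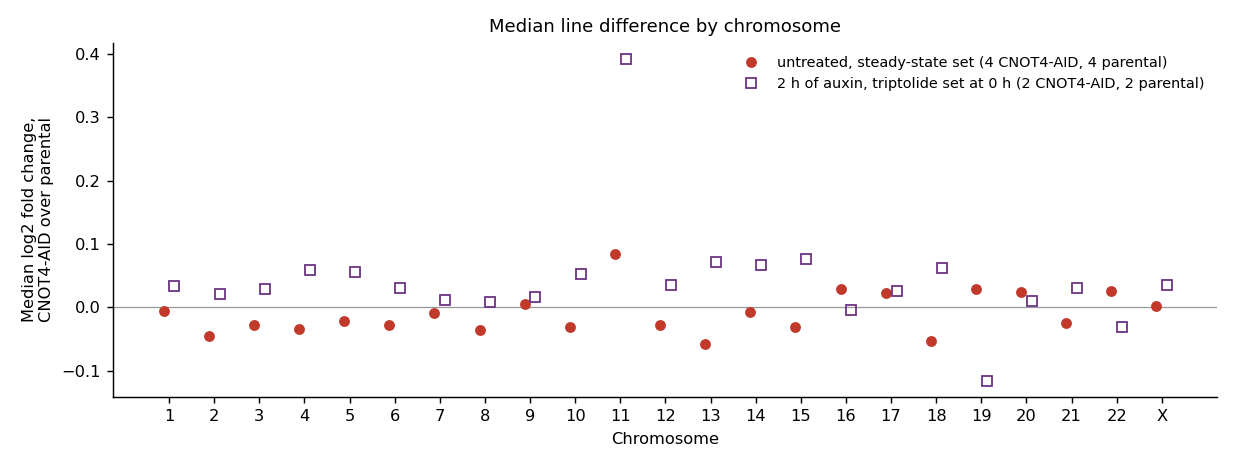
Median log2 fold change (CNOT4-AID over parental) of the genes tested on each chromosome, in the untreated steady-state libraries (filled circles, 4 against 4) and in the 0 h samples of the triptolide set after 2 h of auxin (open squares, 2 against 2). Chromosome 11 lies highest in both, at 0.08 and 0.39. The circles are from TPM fitted with limma and the squares from read counts fitted with edgeR, so their sizes were not compared.

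The 8 auxin-treated steady-state libraries gave the same 2 lines again, with 1 mM auxin. Auxin is meant to deplete CNOT4 in the CNOT4-AID line only, so line and depletion cannot be told apart in them. The same holds for the 2 h auxin set. There, 1712 of 14897 genes (11.5%) were higher in CNOT4-AID cells and 1633 (11%) lower. Without parental replicate 2 at 8 h the counts were 1119 and 1035, without scaling 183 and 5857, and with spike-in scaling 4747 and 573. Of the 986 genes higher without auxin, 566 (57.4%, or 33.1% of the auxin list) were higher there and 1 was lower. Of the 955 lower without auxin, 634 (66.4%, or 38.8%) were lower there and 1 was higher. With auxin the log2 fold change was -4.46 for ZNF540, -4.04 for ZNF493 and -3.32 for ZNF141, and S100P was higher by 2.01 and CD44 by 1.69 (limma, adjusted p = 2.55e-07, 4.32e-08, 5.97e-07, 8.15e-07 and 1.99e-06). FXYD3 was higher there by 0.51, against 1.18 without auxin, a difference that was not tested.

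The 2 h auxin set counted reads in further libraries. ZNF570, ZNF793, ZNF141 and ZFP28 had 0 and 0 reads in CNOT4-AID cells, and in parental cells ZNF570 had 346 and 653, ZNF793 342 and 669, ZNF141 160 and 293, and ZFP28 170 and 295 reads. ZNF540 had 5 and 1 reads in CNOT4-AID cells, against 486 and 962 reads in parental cells. CD44 had 1922 and 1936 reads in CNOT4-AID cells, against 221 and 312 reads in parental cells (2.88 log2 units higher; edgeR, adjusted p = 1.2e-11). S100P was higher by 1.01 (edgeR, adjusted p = 6.2e-05), while S100A4, GGT1, PKIB, TSPAN1, FXYD3 and CAPG did not pass there. Of the named genes called in both sets, CLDN2, EGFR and TFF3 had opposite signs there. CLDN2 was higher, with 788 and 898 reads in CNOT4-AID cells, against 516 and 523 reads in parental cells (0.70 higher; edgeR, adjusted p = 6.64e-05). EGFR had 3685 and 3824 reads in CNOT4-AID cells, against 2429 and 3135 reads in parental cells (0.45 higher; edgeR, adjusted p = 0.00113). TFF3 had 70 and 87 reads in CNOT4-AID cells, against 154 and 108 reads in parental cells (-0.75; edgeR, adjusted p = 0.0388), a call lost without either CNOT4-AID library, without parental replicate 1 and with spike-in scaling (edgeR, adjusted p = 0.234, 0.0606, 0.267 and 0.476). EGFR did not pass with spike-in scaling (edgeR, adjusted p = 0.175), and none of these 3 genes passed with only the 4 libraries at 0 h in the fit. Of the 986 higher without auxin, 296 (30.0%, or 22.4% of the list there) were higher in this set and 15 were lower, and of the 955 lower, 223 (23.4%, or 32.4%) were lower and 38 were higher. Over all genes 1324 were higher and 688 lower in this set, against 2585 and 2149 without parental replicate 1, 3624 and 2516 without parental replicate 2, and 414 lower without CNOT4-AID replicate 2.

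Between 8 h and 24 h the line difference itself changed in 4 genes of 14851 (0.0269%), all higher at 24 h (limma, Benjamini-Hochberg adjusted), beside 1143 at an unadjusted p under 0.05. The count of 4 was 2 without replicate 1 of CNOT4-AID at 24 h, 8 without replicate 2 of parental at either time and 11 without replicate 1 of parental at 8 h. Lower changes, 0 here, numbered 7 without replicate 1 of CNOT4-AID at 8 h, 4 without replicate 2 at 8 h and 1 without replicate 1 at 24 h, and 1 without parental replicate 1 at 8 h and 3 and 5 without parental replicates 1 and 2 at 24 h. All 4 encode short RNAs or lie within introns. SNORA66 had 12.3 and 21.4 TPM at 8 h and 34.8 and 33.9 TPM at 24 h in CNOT4-AID cells, against 15.7 and 21.5 TPM at 8 h and 0 and 0 TPM at 24 h in parental cells. SNORA49 had 10.3, 13.4, 11.85 and 11.5 TPM in CNOT4-AID cells, against 6.57, 12.0, 0 and 0 TPM in parental cells. An exact 0 beside such levels may be a failed estimate for so short a gene, and the depth behind it is unknown. None of the zinc finger, S100 or other genes described above was among the 4.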

How the data were processed

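Total RNA depleted of ribosomal RNA, with ERCC spike-in RNAs added, was sequenced, per the labels' protocols. The authors deposited a table of TPM for the 24 steady-state libraries, whose read depth is unknown, and a table of raw counts for the 24 triptolide libraries, with 18216427 to 26723618 counts per library. STAR 2.5.1b, RSEM, featureCounts, SAMtools and DESeq2, and the builds hg38 and GRCh38, stand in the submitters' processing notes with no role. All 58721 gene identifiers matched GENCODE 29. Genes with at least 1 TPM in at least 2 of the 24 libraries were tested with limma 3.58.1 (trend, robust) on log2(TMM-scaled TPM + 0.5), with time as a covariate. This gave 5 residual degrees of freedom. The 2 h auxin counts were tested with the quasi-likelihood test of edgeR 4.0.16, with all 24 triptolide-set libraries in the fit. R 4.3.3 was used, calls took a Benjamini-Hochberg adjusted p under 0.05, and both fits were tested on simulated data. Alternatives were scaling, filter, pseudocount, the libraries in the fit, a replicate block, each library left out and, for the counts, DESeq2 1.42.0.

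The named genes are the 15 largest rises and 15 largest falls past the threshold with at least 5 TPM in a line, no overlap between lines and no clone-type or small RNA name, the CCR4-NOT subunits, the genes tested within 1 Mb of CNOT4, up to 4 members of each list, genes near 0 in 1 line only, and the genes whose line difference changed with time. Not all of them are printed. The comparison, the genes and the lists were chosen with earlier results of these data known. No libraries were identical.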

Additional observations from a re-analysis of the deposited data

Results flagged for a closer look

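Among 212 groups of 4 libraries checked gene by gene, 11 held a library far from the other 3, where chance flags about 1 in 20 groups. In CNOT4-AID cells these were FXYD3 at 5.93 TPM in replicate 1 at 8 h (the others 6.51 to 6.56), ZFP28 at 0.03 TPM in the same library (the others 0.01), ZNF432 at 1.31 TPM in replicate 2 at 8 h (0.68 to 0.78) and ZNF527 at 2.61 TPM in replicate 1 at 24 h (1.74 to 1.86). In replicate 2 at 24 h they were ZNF100 at 0.04 TPM (the others listed at 0) and RNF2, a polycomb ubiquitin ligase, at 7.05 TPM (6.43 to 6.47). In parental cells they were LGALS1 at 3.40 TPM (the others 2.24 to 2.35), S100A4 at 67.4 TPM (63.8 to 64.0) and ITGA1 at 1.80 TPM (1.1 to 1.14), all in replicate 2 at 24 h, and ZNF571 at 17.1 TPM (14.1 to 14.5) and TFF3 at 4.28 TPM (5.39 to 5.60) in replicate 1 at 24 h.

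The line difference changed between 8 h and 24 h, tested as an interaction in limma, for SNORA66 by 6.06 ± 0.37 (SE, adjusted p = 0.00622), SNORA49 by 3.99 ± 0.38 (adjusted p = 0.0382), SNORA78 by 5.18 ± 0.24 (adjusted p = 0.000136) and the intronic transcript AC006064.5 by 5.39 ± 0.21 log2 units (adjusted p = 7.24e-05).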

How the results depend on the processing

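For untreated CNOT4-AID against parental cells, 1899 values of named genes under the alternatives kept their direction and side of the threshold, 118 lost the call and 14 gained one. A further 15 values, of CNOT7, CNOT9, CNOT10, CNOT11, TNKS1BP1 and CALD1, changed sign with no call in either fit, and 9 changed sign with a call in one of the fits. These 9 turned without TMM scaling: CNOT3 (-0.20), CNOT1 (-0.20), CNOT8 (-0.18), CNOT7 (-0.23), KRT20 (-0.014), KRT8 (-0.027), KRT18 (-0.080), SOX9 (-0.032) and RPL12 (-0.00445), where the median of all genes moved to -0.25. Counts of called genes moved most. With 986 higher and 955 lower, the counts were 292 and 8624 without scaling, 1563 and 1454 with all 24 libraries, 201 and 159 at 8 h alone, 186 and 247 at 24 h alone, and 516 to 886 and 545 to 837 with 1 library left out, while 418 were lower with spike-in scaling. Fits at 1 time or with a library left out use fewer samples. For the other moves the cause was not tested.

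For the auxin-treated lines (1712 and 1633) the counts were 183 and 5857 without scaling, 4747 and 573 with spike-in scaling, 297 and 256 at 8 h, 642 and 560 at 24 h, and 1119 to 1620 and 1035 to 1457 with 1 library left out. Against CNOT1-AID (723 and 771) they were 294 and 5474 without scaling, 1505 and 1398 with all 24 libraries, 88 and 31 at 8 h, 174 and 132 at 24 h, and 345 to 1180 and 320 to 1107 with 1 library left out, while 87 were lower with spike-in scaling and 424 without a filter. After 2 h of auxin (1324 and 688) they were 484 and 178 with spike-in scaling, 40 and 72 with only the 4 libraries at 0 h, and 918 to 3624 and 414 to 2516 with 1 library left out. For the change between times (4 and 0) higher changes numbered 0 with protein-coding TPM, 0 with all 24 libraries, 8 with a pseudocount of 0.1 and 2 to 11 with 1 library left out, and lower ones 1 without scaling, 2 with spike-in scaling, 1 with a pseudocount of 0.1 and 0 to 7 with 1 library left out.

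With the replicate number as a block, 630 genes were higher and 585 lower against parental cells, and 319 higher and 271 lower against CNOT1-AID cells. The deviations of same-numbered libraries correlated at 0.207 at 8 h and -0.0902 at 24 h, and the numbers were not taken as pairs, since the labels give no shared source; 2 correlations do not settle whether one exists. For TPM the depth behind low values is unknown, which limits what an exact 0 shows.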
